A study of Mus musculus with 6 samples.

Results

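The genes Amot, Amotl1, Amotl2, Ptpn14 and Ajuba, which encode the angiomotins and other proteins that act on YAP and TAZ, were examined in CUT&Tag data of cardiac fibroblasts in primary culture from mice. The 5 genes were chosen by their known role together with a rise of reads at Amot in the T set, so the rise at Amot is described here and supports nothing. A region belonged to a gene when the authors' table assigned that gene's symbol to it. In the T set, 37 of 170890 regions belonged to the 5 genes in the table of TGF-b against NC, and 35 of 180118 in the table of TGF-b with siRNA against TGF-b. In the S set, the numbers were 9 of 52723 and 9 of 52579.

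The 6 libraries formed a T set and an S set of 3 libraries each. The study profiled TAZ, the coactivator that works through TEAD factors, and SRF, a factor that binds CArG boxes, so T was read as TAZ and S as SRF, although no label names the antibody. Each set had a library labelled NC, a library treated with TGF-b, a cytokine under which fibroblasts become myofibroblasts, and a library treated with TGF-b together with an siRNA. The study asked whether the siRNA weakens the association of both factors with the chromatin after TGF-b treatment. The labels name that siRNA SiTAZ in the T set and SiSRF in the S set, while the study's text gives Piezo2 as its target and the series' design text describes deletion of Tet3 by a virus carrying Cre, so the knockdown target and the genotype shared by the libraries are not settled. The labels state neither age nor strain of the mice, and no dose or time. Each group was 1 library, so differences had no replicate check and no test was made.

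CUT&Tag reads mark where an antibody's target sat on chromatin and do not measure transcripts. Bulk libraries cannot tell apart fewer occupied cells and less occupancy per cell. The files give no total read number. The median in the regions called in a library was 7 to 13 reads per 2 kb window, and 127036 regions were called in the T set NC library against 53121 in the TGF-b library. The windows of neighbouring regions overlap, so the 37 member regions of the first T set table formed 28 separate groups of windows. Regions within 3 kb of a start site were present in that table for 4 of 6 fibroblast markers, 4 of 5 cardiomyocyte markers, 3 of 4 endothelial markers and 2 of 3 immune markers, so these tables did not set the labelled cell type apart.

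YAP and TAZ enter the nucleus and drive TEAD-dependent genes when the Hippo kinases are inactive. Angiomotin (Amot) and its relatives Amotl1 and Amotl2 are junction and actin-associated scaffolds that bind YAP and TAZ and hold them outside the nucleus, and they also promote activity of the LATS kinases. Ptpn14 encodes a non-receptor tyrosine phosphatase that binds YAP and restrains it. Ajuba encodes a LIM-domain protein that binds LATS kinases and limits their activity, so in that role it acts opposite to the angiomotins, although it was grouped with them. Amotl2 is a widely used YAP/TAZ target gene, an arrangement known as negative feedback.

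The sequences upstream of 4 gene starts are printed because the 2 kb windows counted near those starts covered them. They come from the RefSeq annotation and genome of GRCm38, while the region coordinates below are on GRCm39 as the study's methods state, and the regions were placed by their distance from the same transcript starts. Annotated exons were left out of each stretch. Capitals mark the letters CATTCC, the reverse complement of the TEAD core GGAATG. The Amot stretch (chrX:145505967-145506216, minus strand) ends at the base before the outermost RefSeq start. The Amotl1 stretch is chr9:14615021-14615200 on the minus strand. The Amotl2 stretch is chr9:102717554-102717667 on the plus strand. The Ptpn14 stretch is chr1:189728018-189728215 on the plus strand.
Amot: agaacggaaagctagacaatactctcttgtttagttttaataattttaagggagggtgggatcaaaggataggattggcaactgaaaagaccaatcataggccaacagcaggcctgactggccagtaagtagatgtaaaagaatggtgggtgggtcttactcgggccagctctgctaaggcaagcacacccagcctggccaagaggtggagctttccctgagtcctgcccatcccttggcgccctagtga
Amotl1: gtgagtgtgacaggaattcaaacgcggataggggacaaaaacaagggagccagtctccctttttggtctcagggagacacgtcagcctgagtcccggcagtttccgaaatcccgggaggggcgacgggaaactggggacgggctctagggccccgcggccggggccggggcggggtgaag
Amotl2: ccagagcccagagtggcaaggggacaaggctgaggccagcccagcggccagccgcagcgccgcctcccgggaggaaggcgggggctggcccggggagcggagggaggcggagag
Ptpn14: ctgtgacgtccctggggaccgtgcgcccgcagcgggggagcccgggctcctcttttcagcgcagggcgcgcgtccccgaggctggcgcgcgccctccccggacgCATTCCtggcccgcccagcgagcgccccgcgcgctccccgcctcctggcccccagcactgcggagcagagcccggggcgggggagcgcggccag

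The centre of 1 T set region lay at -93 from the printed Amot start, inside the printed stretch. The letters of the TEAD core, searched on both strands, occurred once in the RefSeq promoter of Ptpn14, at -146 from its start, once in that of Amotl2, at -65, in an annotated exon, and at -186 and -164 in that of Ajuba. The Ajuba promoter is not printed because no counted window of a member region covered it. The same letters occurred in 14.7% of all 32851 RefSeq promoters of 300 bases. The AP-1 letters TGANTCA, found in 7.81% of all promoters, and the CArG box, found in 1.63%, occurred in none of the 5 promoters of that table. The entry for Amot in that table is at an internal start, and the stretch printed for Amot held none of these letters either. A match is a description of letters and not a measured binding site.

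At the Amot start, the T set held almost no reads in NC and many with TGF-b. Amot (ENSMUSG00000041688) had a promoter region on chromosome X, 144288187 to 144288317, centred at -75 from the start of ENSMUST00000143610. Reads in its window were 1 in NC, 44 with TGF-b and 21 with the siRNA. A second region, at 144288969 to 144289141 and centred at -878, had 1, 43 and 17 reads in the same order. The TGF-b library was the highest at both regions and the NC library the lowest. The centres lay 803 bases apart and their windows shared 1197 bases, so these are not separate measurements.

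The normalized read density, the authors' rescaled reads per kb, at the -75 region was 0.958 in NC and 23.5 with TGF-b. The log2 ratio was 4.61, with a 95% interval of 3.06 to 8.11 computed by Wilson's method on the later library's share of the reads, which covers counting error only. At the -878 region it was 4.58 (3.02 to 8.07). With the single NC read set to a floor of 3 reads, the log2 ratios became 3.58 and 3.55.

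In the siRNA library, the reads at the Amot start lay between those of the other libraries. The log2 ratio of TGF-b with siRNA over TGF-b was -0.56 (-1.33 to 0.15) at the -75 region and -0.82 (-1.66 to -0.06) at the -878 region. The interval of the former included 0, and neither value passed 2-fold. Both passed it without the authors' line, at -1.03 and -1.29, and when centred on the median of all regions, at -1.53 and -1.79. That median was 0.97, against 0.33 for regions within 3 kb of a start, and centring on the latter was not done. The table of this comparison shares its TGF-b library with the first one.

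Away from the start, Amot had few reads in the T set. An intron 2 region at -3293 from another start had 10 reads in NC and 0 with TGF-b, 2.47-fold lower with the floor of 3 reads for the empty library. That floor is a setting and not a bound, as the log2 interval, open below, reached up to -1.16. An intron 1 region at 6349 had 5 and 7 reads, with a log2 ratio of 0.57 (-0.94 to 2.21), or 1.22 when centred. Internal regions at 2322 and -2255 from the start of ENSMUST00000135832 were listed in the second table only, with 0 reads with TGF-b against 6 and 4 with the siRNA. At the same floor they were 2.39-fold and 1.70-fold higher. No region away from the start had more than 10 reads.

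**Figure D1:**
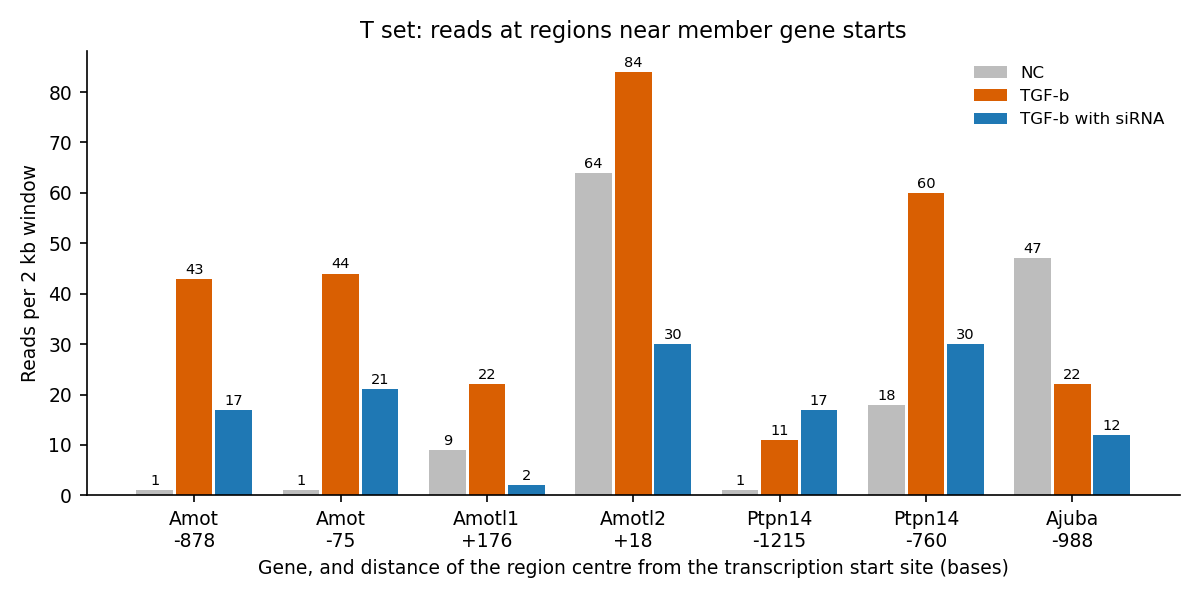
Reads per 2 kb window (vertical axis) in the 3 T set libraries at the 7 member regions within 3 kb of a start site that both tables hold, labelled by gene and distance of the region centre from the start site in bases. Bars are single libraries without replicates, and the Amot regions show 1 read in NC against 43 and 44 with TGF-b, while Ajuba shows its highest count, 47, in NC.

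Amotl1, an angiomotin relative, also had more reads at its start with TGF-b, on a smaller scale. Amotl1 (ENSMUSG00000013076) had a 5' UTR region on chromosome 9, 14526061 to 14526192, centred at 176 from the start of ENSMUST00000013220, with 9 reads in NC, 22 with TGF-b and 2 with the siRNA. Its log2 ratio was 1.28 (0.28 to 2.46) for TGF-b over NC and -2.48 (-4.94 to -1.06) for the siRNA over TGF-b. The siRNA library was the lowest of the 3 here, in contrast to the Amot start. A neighbouring 5' UTR region at 14526646 to 14526738, centred at 87 from the start of ENSMUST00000162901, had 9 and 19 reads and a log2 ratio of 1.09 (0.05 to 2.28). It shared 1434 bases of its window with the first and was in the first table only.

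Inside Amotl1, reads were fewer with TGF-b at the densest regions. An intron 1 region at 18333 (14507821 to 14508117) had 50 reads in NC, 17 with TGF-b and 25 with the siRNA. The log2 ratio was -1.49 (-2.32 to -0.76) with TGF-b. In the second table the density was 7.65 with TGF-b and 15.3 with the siRNA, with a log2 interval of 0.15 to 1.90. That log2 ratio was 0.03 when centred and 0.53 without the authors' line, and the ratio with TGF-b was -0.83 when centred. The adjoining intron 2 region at 19250 had 40 and 11 reads, a log2 ratio of -1.73. NC held more reads than TGF-b at both intronic regions, and fewer at the start. The windows of the 18333 and 19250 regions overlap, so these are not separate measurements. The second table does not list the 19250 region.

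Of the 11 Amotl1 regions beyond 3 kb in the first T set table, 6 were at least 2-fold lower with TGF-b and 2 at least 2-fold higher, against 44.7% and 17.0% of all regions beyond 3 kb or with no assigned start, whose median log2 ratio was -0.80. Centring gave 3 lower and 3 higher. Among the 6 lower, the windows at 18333 and 19250 overlap, as do neighbouring windows at -7593, -8826 and -9624, so these are not separate measurements. The lowest ratio was at an intron 2 region at -8826 (14535566 to 14535644), where reads went from 33 to 8, a log2 ratio of -1.85 (-3.07 to -0.89). The 2 higher regions were at 14790 and -21853. The former, in a 3' UTR, had 4 and 12 reads and a log2 ratio of 1.52 (0.17 to 3.28). The latter, in intron 3, had 0 and 8 reads, 2.52-fold higher at the floor of 3 reads. Of the 10 regions beyond 3 kb in the siRNA table, 7 were at least 2-fold higher and 2 at least 2-fold lower, against 52.4% and 15.6% of all regions beyond 3 kb. Centring gave 3 and 3, and leaving out the authors' line gave 4 and 2. Among the 7 higher, the windows at -5706 and -6625 overlap, as do those at 16672 and 18333. An intron 6 region at -6625 had 1 and 12 reads, a log2 ratio of 3.15 (1.45 to 6.62), which was 2.15 at the floor of 3 reads. At intron 1, 5048 bases from the start, the libraries had 7, 2 and 17 reads. An intron 3 region at 26210, in the second table only, had 9 and 16 reads, a log2 ratio of 1.23 (0.15 to 2.44), or 0.26 when centred. Nearer a start, that of ENSMUST00000161171, a region at 2042 in that table had 5 and 9 reads. Its log2 ratio was 1.19 (-0.20 to 2.81), or 0.22 when centred.

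Amotl2, the feedback target, had the densest member region of the T set. Amotl2 (ENSMUSG00000032531) had a 5' UTR region on chromosome 9, 102594738 to 102595032, centred at 18 from the start of ENSMUST00000142011, with 64 reads in NC, 84 with TGF-b and 30 with the siRNA. The log2 ratio with TGF-b was 0.32 (-0.14 to 0.79), an interval that included 0, but 0.97 when centred, which lies above that interval. With the siRNA it was -0.97 (-1.60 to -0.41), below 0 but short of 2-fold, and past it without the authors' line (-1.46) or when centred (-1.94). In NC the Amotl2 start thus held 64 reads, while the windows at the Amot start held 1 each.

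The larger difference at Amotl2 was inside the gene. An intron 6 region (102603580 to 102603756), centred 3935 bases from a start site, had 9 reads in NC, 49 with TGF-b and 6 with the siRNA. Its log2 ratio was 2.37 (1.48 to 3.49) with TGF-b and -2.37 (-3.75 to -1.37) with the siRNA. Only the TGF-b library was high here. A region at -96 from an internal start, that of ENSMUST00000138224, had 30 and 18 reads in NC and TGF-b, which gave a log2 ratio of -0.67 (-1.53 to 0.13), and an exon 1 region at 841 from that start had 15 and 6 reads with TGF-b and the siRNA, a log2 ratio of -0.73 (-2.18 to 0.46) that passed 2-fold without the authors' line (-1.19) and when centred (-1.70).

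Ptpn14, the phosphatase, had more reads upstream of its first start with TGF-b. Ptpn14 (ENSMUSG00000026604) had a promoter region on chromosome 1, 189459593 to 189459817, centred at -760 from the start of ENSMUST00000097442, with 18 reads in NC, 60 with TGF-b and 30 with the siRNA. The log2 ratio was 1.69 (0.99 to 2.49) with TGF-b and -0.50 (-1.15 to 0.11) with the siRNA. The siRNA ratio was -0.98 without the authors' line, and passed 2-fold when centred on the median of all regions (-1.47). A second region at -1215 from an internal start, that of ENSMUST00000128275 (189517529 to 189517708), had 1, 11 and 17 reads, and log2 ratios of 2.77 (1.05 to 6.23) and 1.05 (0.02 to 2.16). The former rests on 1 NC read and was 1.74 at the floor of 3 reads, and the latter was 0.08 when centred and 0.58 without the authors' line, short of 2-fold. The siRNA library was the highest at this internal start and lay between the others at the first start. A region at -1966 from the same internal start, in the second table only, had 7 reads with TGF-b and 17 with the siRNA, a log2 ratio of 1.63 (0.51 to 2.97) that was 0.66 when centred. Its window overlaps that of the -1215 region, so these are not separate measurements. An intron 12 region at 1379 from the start of a short internal transcript had 12 reads in NC and 1 with TGF-b, a log2 ratio of -2.52 (-5.99 to -0.82), which was -1.55 at the floor of 3 reads.

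Farther from its starts, Ptpn14 had more lower than higher regions with TGF-b as deposited, a split that turned on centring. Of 13 regions beyond 3 kb, 4 were at least 2-fold lower, 0 at least 2-fold higher and 9 in between. The lower share, 30.8%, stood below the 44.7% of all regions beyond 3 kb, of which 17.0% were higher. Centred on the median of all regions, 3 were higher and 2 lower, with -18514 at 1.24 and 3096 at -0.40. The lowest was an intron 2 region at 9565, with 27 and 2 reads and a log2 ratio of -3.10 (-5.56 to -1.70), followed by intron 1 at -13006, with 16 and 2 reads. The intron 1 region at 3096 had 21, 9 and 7 reads over the 3 libraries.

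With the siRNA, the 11 Ptpn14 regions beyond 3 kb split into 5 at least 2-fold higher, 3 at least 2-fold lower and 3 in between, against 52.4% higher and 15.6% lower of all regions beyond 3 kb, and centring gave 1 higher and 4 lower, while leaving out the authors' line gave 2 and 3. An intron 1 region at -18514 (189500213 to 189500426) had 13, 19 and 0 reads, 3.64-fold lower with the siRNA than with TGF-b at the floor of 3 reads. An intron 1 region at -8147 had 9, 12 and 1 reads. An intron 3 region at 13765, in the second table only, had 8 reads with TGF-b and 14 with the siRNA. Its log2 ratio was 1.20 (0.05 to 2.49), or 0.23 when centred. At intron 1, 15192 bases from the start, the libraries had 12, 9 and 18 reads, and the siRNA ratio was 1.39 (0.34 to 2.59), but 0.42 when centred and 0.93 without the authors' line. The table assigned 7 further regions inside Ptpn14 in the first T set table, and 4 in the second, to other genes, and these are not counted here.

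Ajuba, whose product limits the LATS kinases, had more reads in NC than in the other T set libraries. Ajuba (ENSMUSG00000022178) had a single region, on chromosome 14, 54810405 to 54810650, centred at -988 from the start of ENSMUST00000226463, a short transcript that starts inside the gene. Reads were 47 in NC, 22 with TGF-b and 12 with the siRNA. The log2 ratio was -1.05 (-1.81 to -0.36) with TGF-b, past 2-fold, but -0.40 when centred. With the siRNA it was -0.36 (-1.40 to 0.59), short of 2-fold as deposited and without the authors' line (-0.82), and past it when centred (-1.33). By distance from the transcript starts, its window began 3591 bases downstream of the RefSeq start of Ajuba, so it does not report on that promoter.

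**Figure D2:**
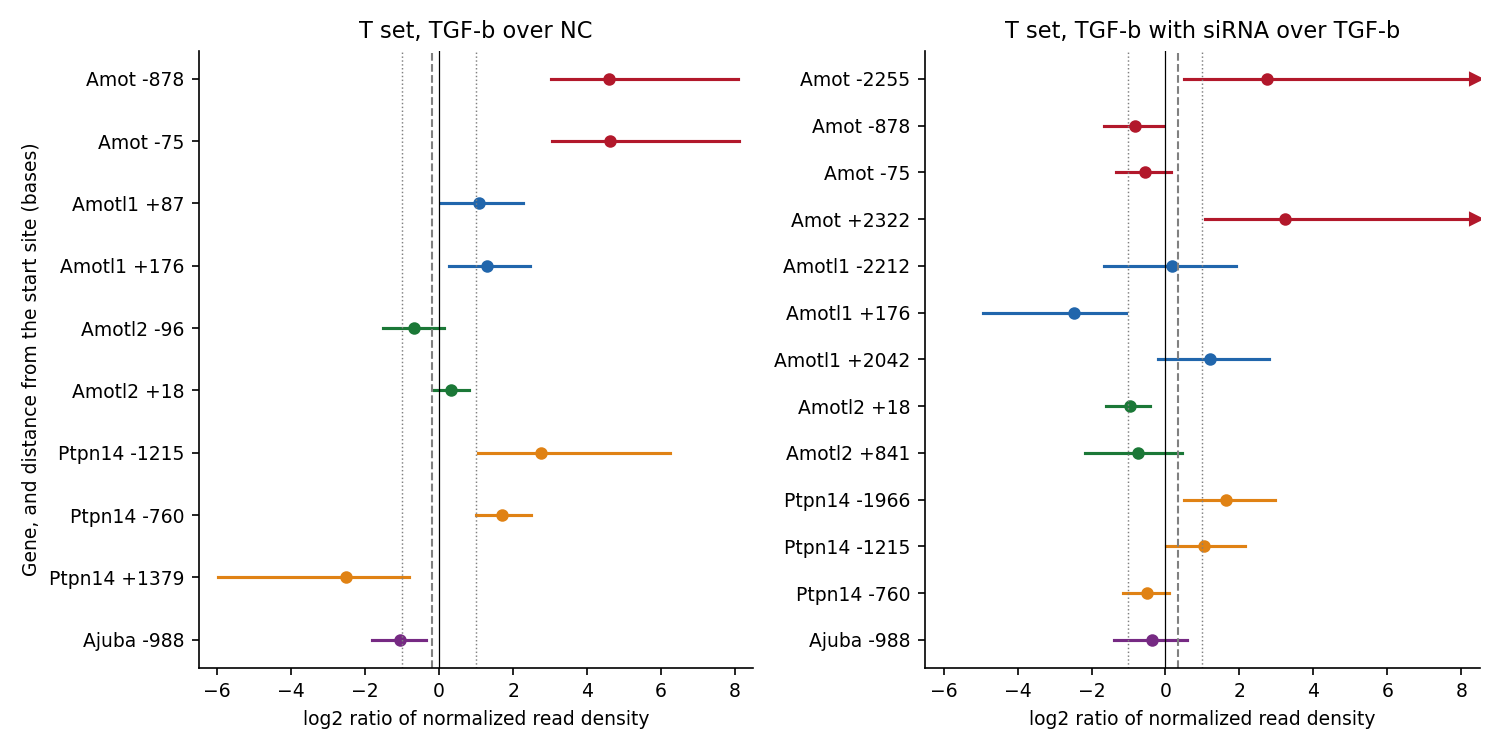
The log2 ratio of normalized read density (horizontal axis) for each T set member region within 3 kb of a start site, labelled by gene and distance from the start in bases, with TGF-b over NC on the left and TGF-b with siRNA over TGF-b on the right. Points are single regions, bars their 95% counting intervals (an arrowhead marks an open end where a library had 0 reads), dotted lines mark 2-fold, and the dashed line is the median of all regions within 3 kb, -0.18 and 0.33. The Amot intervals on the left start at 3.02 and 3.06.

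Counted together, 9 of the 37 T set regions of the 5 genes were at least 2-fold higher with TGF-b than in NC, against 17.3% of all regions, and 13 were at least 2-fold lower, against 42.1%. That is 24.3% and 35.1%, and the median log2 ratio was -0.32 against -0.65 over all regions. Without Amot, which was picked for its rise, 7 of 33 were higher and 12 lower, that is 21.2% and 36.4%, with a median of -0.47. Of the 37 regions, 22 were called in NC only, 13 with TGF-b only and 2 in both. Of all 170890 regions, the numbers were 117769, 43854 and 9267 in the same order. A region called in 1 library alone tends by that calling to be higher there. Centred on the median of all regions, 14 were higher and 7 lower.

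Member regions were also counted by distance. Within 3 kb of a start, 6 of 10 were at least 2-fold higher, against 19.2% of all such regions, and 2 of 10 lower, against 29.2%. The 6 were the pairs at Amot and Amotl1, whose windows overlap, and the Ptpn14 regions at -760 and -1215. Without Amot, 4 of 8 were higher and 2 lower, with a median log2 ratio of 0.70. Beyond 3 kb, 3 of 27 were higher and 11 lower, that is 11.1% and 40.7%, against 17.0% and 44.7% of all regions there. These shares are descriptions of a few regions in 1 pair of libraries.

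With the siRNA, 17 of the 35 T set regions were at least 2-fold higher than with TGF-b alone, against 49.7% of all regions, and 7 were lower, against 16.2%. The member shares, 48.6% and 20%, were near those of all regions, and the median log2 ratio was 0.45 against 0.97. Within 3 kb of a start, 5 of 13 were higher, against 34.5% of all such regions, and 1 was lower, against 19.6%. The 1 lower region was that at the Amotl1 start. The median of these 13 was -0.36, against 0.33 for all regions within 3 kb. Centring on the median of all regions gave 6 higher and 15 lower, and reads without the authors' line gave 9 higher and 11 lower, so this split depended on the scaling.

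**Figure D3:**
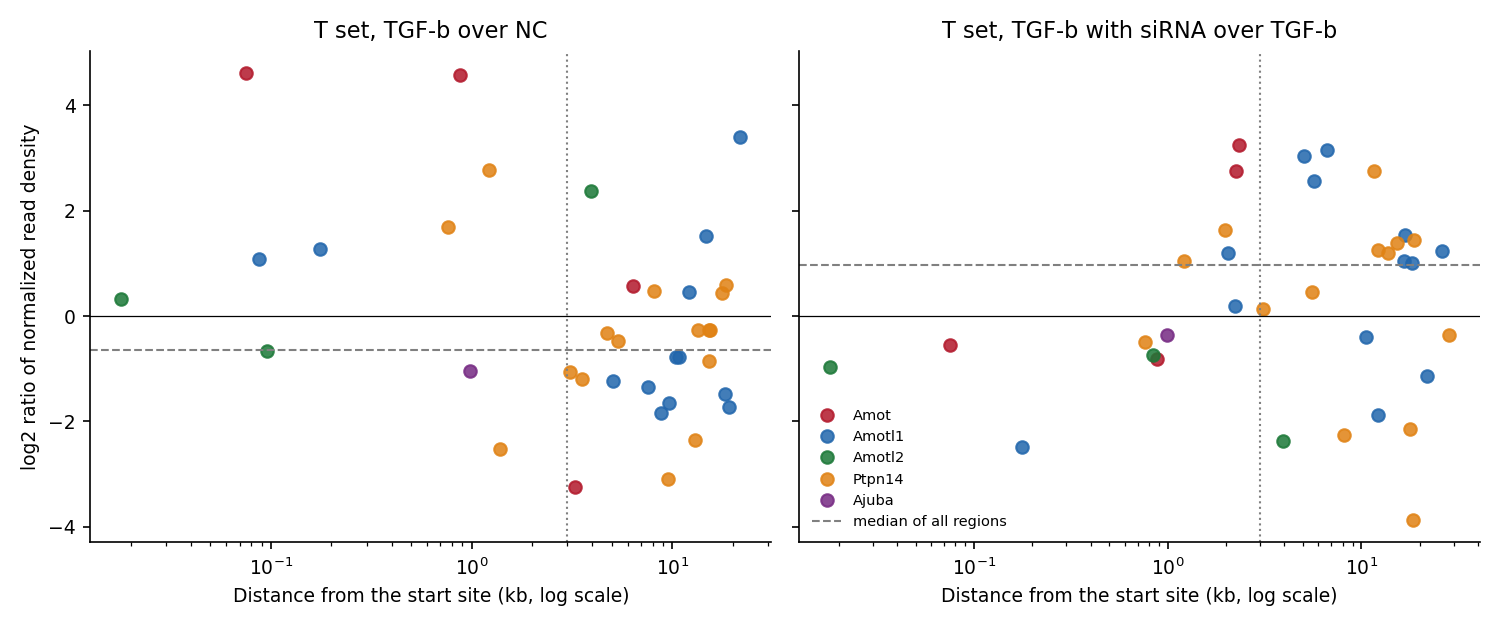
The log2 ratio of normalized read density (vertical axis) of every T set member region against its distance from the nearest start site, upstream or downstream, in kb on a log axis, with TGF-b over NC on the left (37 regions) and TGF-b with siRNA over TGF-b on the right (35 regions). Points are regions coloured by gene, the dashed line is the median of all regions (-0.65 and 0.97), the dotted line stands at 3 kb, and on the left 6 of the 10 points nearer than 3 kb lie above 1 while 11 of the 27 beyond lie below -1.

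In the S set, taken as SRF, the 5 genes had 9 regions in each table, in tables that held fewer regions in all. The highest member count was 21 reads, against 84 in the T set, while the median of member regions with TGF-b was 9 reads in the first table of either set. At Amot, a 5' UTR region on chromosome X, 144287781 to 144287956, centred at 272 from the start of ENSMUST00000112835, had 6 reads in NC, 13 with TGF-b and 11 with the siRNA. The log2 ratio was 0.42 (-0.81 to 1.88) for TGF-b over NC, and for the siRNA over TGF-b it was -0.13 (-1.28 to 0.98). Both intervals included 0, and the former ratio was 1.0 without the authors' line. A promoter region at -856 (144288978 to 144289088), in the second table only, had 8 reads with TGF-b and 21 with the siRNA, a log2 ratio of 1.37 (0.33 to 2.62). Its window overlaps that of the 272 region, so these are not separate measurements.

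The remaining S set regions of Amot were low. An intron 7 region at 6521 had 4, 6 and 0 reads, 1.59-fold lower with the siRNA than with TGF-b at the floor of 3 reads. A region downstream of the gene's end, at 16551, had 9 and 4 reads in NC and TGF-b, which gave a log2 ratio of -1.59 (-3.37 to -0.15). Neither was at the start of the gene.

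At the Amotl2 start, the S set region on chromosome 9, 102594596 to 102594925, centred at -107, had 9, 15 and 16 reads. The log2 ratios were 0.11 (-0.99 to 1.33) with TGF-b and 0.16 (-0.83 to 1.16) with the siRNA. The 3 libraries could not be told apart at this depth. The Ajuba exon 1 region (chromosome 14, 54813896 to 54814067), centred at 1034 from the start of ENSMUST00000054487, had 11, 9 and 6 reads. On the log2 scale, TGF-b over NC was -0.84 (-2.10 to 0.37) and the siRNA over TGF-b -0.40 (-1.90 to 0.96).

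A region inside Amotl1 and another inside Ptpn14 had most of their S set reads in the TGF-b library. The Amotl1 exon 3 region at 21491 (14504713 to 14504909) had 3, 11 and 0 reads. Its log2 ratio was 0.99 (-0.45 to 3.02) with TGF-b, and it was 2.75-fold lower with the siRNA at the floor of 3 reads. The Ptpn14 intron 3 region at 22907 (189541685 to 189541868) had 5, 13 and 1 reads. Here TGF-b over NC gave 0.64 (-0.63 to 2.23) on the log2 scale and the siRNA over TGF-b gave -2.66 (-6.14 to -0.98), or -1.69 at the floor of 3 reads. The intervals for TGF-b over NC included 0 at both regions, though without the authors' line the ratios passed 2-fold, at 1.58 for Amotl1 and 1.22 for Ptpn14. The other S set regions, present in 1 table each, were Amotl1 at 12690 and Ptpn14 at 1107, 4123 and 12254, with 4 to 10 reads per library.

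**Figure D4:**
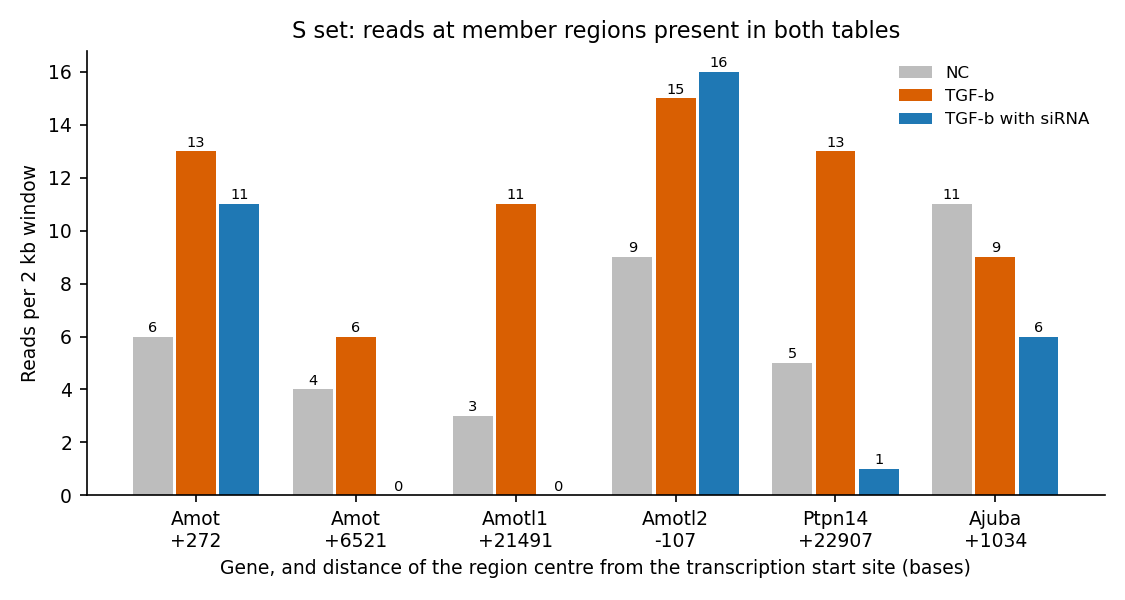
Reads per 2 kb window (vertical axis) in the 3 S set libraries at the 6 member regions that both S set tables hold, labelled by gene and distance from the start site in bases. Bars are single libraries without replicates. Counts range from 0 to 16, and the siRNA library has 0, 0 and 1 reads at Amot 6521, Amotl1 21491 and Ptpn14 22907.

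In the S set, 0 of the 9 member regions were at least 2-fold higher with TGF-b, against 17.4% of all regions, and 2 were lower, against 26.7%. The median log2 ratio was -0.11 against -0.20 over all regions. Reads without the authors' line gave 3 higher and 1 lower. With the siRNA, 1 of 9 was at least 2-fold higher, against 15.1%, and 3 were lower, against 27.8%, with a median of -0.40 against -0.21. The 9 regions at these read counts are too few to read a share from.

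The overlap of the sets at member regions was near that of all regions. In the tables of TGF-b against NC, 1 of 37 T set regions overlapped an S set region by at least 1 base, against 3.98% of all T set regions, and in those of the siRNA the overlap was 2 of 35, against 4.69%. The shared places were the starts of Amotl2 and Amot. At the Amotl2 start the siRNA ratio was -0.97 for the T set against 0.16 for the S set. At the Amot promoter it was -0.82 at -878 in the T set and 1.37 at -856 in the S set. These differences between sets were not tested.

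Other genes of the Hippo pathway were counted beside the members. A list of 16 such genes covered upstream regulators and scaffolds (Nf2, Wwc1, Wwc2, Frmd6, Sav1 and Taok1), the kinases and their cofactors (Stk3, Stk4, Lats1, Lats2, Mob1a and Mob1b), relatives of the members (Limd1, Wtip and Ptpn21) and the TEAD competitor Vgll4. It had 126 T set regions, of which 13 were at least 2-fold higher with TGF-b and 48 lower, that is 10.3% and 38.1% against 17.3% and 42.1% of all regions, with a median of -0.52. Within 3 kb of a start, 4 of 23 were higher and 6 lower, against 19.2% and 29.2%.

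In the first T set table, 11 of the 16 genes had a region within 3 kb of a start. At the densest such region of each of these, the largest log2 ratio with TGF-b was 1.38 at Wtip, a LIM-protein relative of Ajuba, with 11 and 29 reads. Stk3, a Hippo kinase, had 27 and 57 reads, and Sav1, its scaffold, 13 and 26. Taok1, a kinase that acts upstream of Stk3, had 37 and 14 reads, a log2 ratio of -1.30. With the siRNA over TGF-b, at the densest start region that the second table lists for each gene, Wtip had 29 and 1 reads and Sav1 had 26 and 8, while Ptpn21, a phosphatase relative of Ptpn14, had 6 and 20, a log2 ratio of 2.05. The other 9 of the 12 genes with such a region lay between -0.77 at Lats1, with 25 and 10 reads, and 0.99 at Stk4, with 22 and 32, all short of 2-fold as deposited. The median was 0.33 over all regions of that table within 3 kb of a start, and 0.97 over all its regions. The ratio at Stk4 stood above the former and near the latter, and that at Lats1 below both.

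In the siRNA tables, 45 of 109 T set regions of the list were at least 2-fold higher and 14 lower, that is 41.3% and 12.8% against 49.7% and 16.2% of all regions, with a median of 0.79 against 0.97. In the S set, 6 of 23 were higher and 9 lower with TGF-b, against 17.4% and 26.7% of all regions. With the siRNA, 6 of 24 were higher and 5 lower, against 15.1% and 27.8%. Frmd6, a scaffold upstream of the kinases, had 3 reads in NC and 28 with TGF-b at its S set start region, and 12 with the siRNA, while its T set start region had 32, 51 and 21 reads.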

How the data were processed

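CUT&Tag libraries were deposited as 4 tables, each comparing 2 libraries of a set. The study's methods give GRCm39, Bowtie2 and a peak caller written Masc2, whereas the submitters' processing notes name mm10 and BWA 0.7.12. Of 36117 transcripts in the tables, 1.91% had the same start as in a GRCm38 annotation and 98.1% the same length, so coordinates were not read as mm10. The authors' normalized read density is a signal, 0.5 times the reads plus 1 in a 2 kb window, rescaled along a line in mean log2 density, which removes a change common to shared regions. Whole reads were recovered within 0.1 in 99.979% to 99.993% of regions, a step tested on simulated data. The authors' log2 ratio and p-value columns hold their own comparisons and were not used.

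Ratios were the later library over the earlier one, within a table, since tables were normalized separately. Intervals (95%, Wilson) cover counting error only, as reads without molecular identifiers are not independent molecules. A library with 0 reads was set to 3 for a fold. Named for each gene are up to 4 regions within 3 kb of a start, the 2 densest beyond it, and the largest rise and fall past 2-fold with at least 10 reads. Other named regions were picked after their values were seen. Alternatives covered thresholds, scaling, read floors and filters, position and pseudocount. The members and lists were chosen with earlier results of these data known. Python 3.11.15, numpy 2.4.6, pandas 2.3.3 and scipy 1.17.1 were used.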

Additional observations from a re-analysis of the deposited data

Results flagged for a closer look

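The sets differed in sign after the siRNA in the values below, and none of these differences was tested, as each group was 1 library. The median log2 ratio of TGF-b with siRNA over TGF-b over the member regions was 0.45 in the T set (35 regions) and -0.40 in the S set (9 regions), while the median of all regions was 0.97 and -0.21. Centred on those medians, the values were -0.52 and -0.19, of the same sign, and without the authors' line they were 0 and -0.51. At the Amotl2 start, the ratio was -0.97 at the T set region at 18, with 84 and 30 reads, and 0.16 at the S set region at -107, with 15 and 16 reads and an interval of -0.83 to 1.16. At the Amot promoter, it was -0.82 at the T set region at -878, with 43 and 17 reads, and 1.37 at the S set region at -856, with 8 and 21 reads. The intervals at Amot, -1.66 to -0.06 and 0.33 to 2.62, did not overlap and cover counting error only. The S set window at -856 overlapped that of the S set region at 272, where the ratio was -0.13.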

How the results depend on the processing

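Of 128 alternative values of the counts, medians and overlaps, 86 stayed close to the reported value, 32 moved and 10 changed sign. In the T set with TGF-b over NC (9 regions higher, 13 lower, median -0.32), a 4-fold threshold gave 5 higher and 4 lower, centring on the median of all regions gave 14 and 7 with a median of 0.33, and regions within 3 kb gave 2 lower with a median of 1.18. With the siRNA over TGF-b in the T set (17 higher, 7 lower, median 0.45), a 4-fold threshold gave 6 higher, centring gave 6 and 15 with a median of -0.52, and leaving out the authors' line gave 9 and 11. Reads of 3 or fewer set to 3 gave 4 lower there, regions above the median of mean signal gave 11 and 2, a minimum of 10 reads gave 11 and 4, and regions within 3 kb gave 5 and 1 with a median of -0.36.

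In the S set with TGF-b over NC (0 higher, 2 lower, median -0.11), a 1.5-fold threshold gave 2 higher and 4 lower, a 4-fold threshold 0 lower, centring 1 higher with a median of 0.084, and leaving out the line 3 higher and 1 lower with a median of 0.49. There, regions above the median of mean signal gave 0 lower and a median of 0.27, a minimum of 10 reads 0 lower and a median of 0.42, regions within 3 kb 1 lower, and leaving out Amot 1 lower. With the siRNA in the S set (1 higher, 3 lower, median -0.40), a 1.5-fold threshold gave 2 higher and a 4-fold threshold 0, regions above the median of mean signal 0 lower with a median of 0.16, regions within 3 kb 0 lower with a median of 0.013, and leaving out Amot 0 higher. Filters on position or reads leave fewer regions, and beyond that the cause was not tested.

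Of 232 alternative values of single regions, 221 stayed within the counting interval, 6 moved out of it and 5 changed sign. The sign changed at Amotl1 -2212 in the T set with the siRNA (0.19), to -0.78 on centring and -0.26 without the line, at Amot 6521 in the S set with TGF-b (-0.11), to 0.084 and 0.49, and at Amot 272 in the S set with the siRNA (-0.13), to 0.077 on centring. Centring took the T set siRNA ratios at the starts past 2-fold, to -1.53 and -1.79 at Amot, -1.94 at Amotl2 and -1.47 at Ptpn14. The median used was that of all regions, 0.97, while that of regions within 3 kb was 0.33, and centring on the latter was not done. Centring also moved the ratio with TGF-b at Amotl2 18 from 0.32 to 0.97. It took the siRNA ratios at Amotl1 18333 (0.03) and Ptpn14 -1215 (0.08) below 2-fold. Leaving out Amot and keeping 1 region per group of overlapping windows were chosen after seeing the data. No paired analysis was possible because each group was 1 library, and for that reason no library could be left out. With a median of 7 to 13 reads per called region, counting intervals were wide, as at the S set Amotl2 start (-0.99 to 1.33).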
